A study of Homo sapiens with 136 samples.

Results

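The cytosolic ribosome is built from ribosomal RNAs and a fixed set of proteins, and the messages for those proteins are described here in human pancreatic cancer cell lines treated with inhibitors of autophagy and of the RAF, MEK and ERK kinases. The genes were chosen by name alone. A symbol counted when it read RPL or RPS followed by a number, with an optional A, X or L, or when it was RPLP0, RPLP1, RPLP2 or RPSA. Pseudogenes, the RPS6K kinases and Y-linked forms were left out. This gave 81 of the 25435 symbols in the table, 49 for the large subunit and 32 for the small subunit.

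AsPC-1 and PANC-1 are established lines from human pancreatic ductal adenocarcinoma. Both were profiled by PLATE-Seq, in which cells are lysed in culture plates and their RNA is barcoded for pooled sequencing. After 24 h of growth the cells received drug for 24 h. Every library carried an autophagy inhibitor, either hydroxychloroquine, which blocks the lysosomal end of autophagy, or the Vps34 inhibitor Compound 19, directed at the lipid kinase at the start of autophagosome formation. Each was given alone in 6 libraries per line or with 1 of 14 kinase inhibitors in 2 libraries per combination, 1 on each of plates A and B, which made 68 libraries in 30 treatment groups per line. Of the kinase inhibitors, 5 target RAF (dabrafenib, GDC-0879, PLX8394, RAF709, sorafenib), 5 target MEK (binimetinib, cobimetinib, refametinib, selumetinib, trametinib) and 4 target ERK (AZD0364, ravoxertinib, SCH772984, ulixertinib). Each kinase inhibitor was used at the concentration that left 80% viability after 48 h as a single agent. Untreated cells and kinase inhibitors on their own are not part of the set, so both sides of every comparison hold an autophagy inhibitor. The labels do not say whether replicates are separate cultures, so p-values measure only the spread between these libraries.

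Library totals ran from 1419228 to 5871860 counts. Of the epithelial genes, EPCAM was at a mean of 629 CPM (counts relative to library size) in AsPC-1 and 8.30 CPM in PANC-1 in the libraries with an autophagy inhibitor alone, CDH1 at 20.7 and 1.08 CPM, and KRT18 at 1689 and 443 CPM. KRT8 was at 918 and 110 CPM, KRT19 at 604 and 24.3 CPM, and KRT7 at 9.94 and 10.4 CPM, so KRT7 did not share the order of the others. The mesenchymal marker VIM was high in both, at 3364 CPM in AsPC-1 and 2411 CPM in PANC-1. The other mesenchymal markers were far lower in both lines, ZEB1 at 31.7 and 35.2 CPM, CDH2 at 0.048 and 2.13 CPM, and FN1 at 0.754 and 0.874 CPM. Of markers of other cell types, the leukocyte genes PTPRC and CD3E were at 0, CD68 was at 4.90 and 3.45 CPM, LUM at 68.6 CPM in AsPC-1 and COL1A1 at 46.2 CPM in PANC-1. Single libraries lay far from the rest of their line in the ribosomal protein share of counts. They were AsPC-1 with RAF709 and hydroxychloroquine replicate 1 (8.43%), AsPC-1 with dabrafenib and the Vps34 inhibitor replicate 2 (13.94%), and PANC-1 with GDC-0879 and hydroxychloroquine replicate 1 (10.43%). Mitochondrial ribosomal RNA took 11.25% of counts in the last, the highest of all libraries.

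Ribosomal proteins are needed in matched amounts, and their messages are among the most abundant in growing cells. Most of them begin with a C followed by an unbroken run of pyrimidines, the 5′ terminal oligopyrimidine (TOP) motif, through which mTORC1 controls their translation and storage. The genes themselves are read by RNA polymerase II, and growth signals through ERK and MYC are known to raise ribosome production, mainly by way of ribosomal RNA and assembly factors.

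The first bases of the messages carry this motif, and the start regions of the members that the results turn on are therefore shown before their values. Start sites are from RefSeq on GRCh38.p14, in which 64 of the 81 members had an entry. Each window holds 15 bases before and 15 bases from the annotated start, 5′ to 3′ on the gene's strand, and capitals mark the run of C followed by at least 4 pyrimidines that begins at the start. The first windows are those of some of the members that AsPC-1 held at a higher level with the Vps34 inhibitor than with hydroxychloroquine. RPS27L and RPL27 were also higher in that comparison. Their windows, which show no run, are placed with the next ones.
RPS18, chr6:33272060-33272089, plus strand: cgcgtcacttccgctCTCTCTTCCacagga
RPL12, chr9:127451392-127451421, minus strand: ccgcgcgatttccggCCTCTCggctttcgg
RPL13, chr16:89560667-89560696, plus strand: ttgcggggccgcttcCTTTCCgctcggctg
RPS3, chr11:75399503-75399532, plus strand: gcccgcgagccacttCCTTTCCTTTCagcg
RPS14, chr5:150449725-150449754, minus strand: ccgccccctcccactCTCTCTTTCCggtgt
RPS12, chr6:132814554-132814583, plus strand: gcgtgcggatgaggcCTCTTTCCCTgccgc
RPL34, chr4:108620561-108620590, plus strand: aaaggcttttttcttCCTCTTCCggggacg

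The next windows belong to RPS27 and its paralog RPS27L, which both rose with MEK and ERK inhibitors in AsPC-1. After them come RPL4, RPL27 and RPS7, which fell there. Other members that fell, among them RPL23, RPL7 and RPS6, are not shown, and whether they have a run is not given here. The windows are a selection, so they do not show how the run relates to the direction of change. The last window is that of RPS16, which was at a much higher level in PANC-1.
RPS27, chr1:153990747-153990776, plus strand: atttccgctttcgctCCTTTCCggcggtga
RPS27L, chr15:63157463-63157492, minus strand: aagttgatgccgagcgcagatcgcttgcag
RPL4, chr15:66504841-66504870, minus strand: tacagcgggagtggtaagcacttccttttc
RPL27, chr17:42998404-42998433, plus strand: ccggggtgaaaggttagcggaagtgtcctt
RPS7, chr2:3575245-3575274, plus strand: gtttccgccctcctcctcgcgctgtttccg
RPS16, chr19:39435935-39435964, minus strand: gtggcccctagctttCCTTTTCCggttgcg

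The windows of RPS27L, RPL4, RPL27 and RPS7 show no run at the annotated base. In RPL4 a stretch of pyrimidines lies within the window, downstream of the annotated start. In RPS7 a stretch of pyrimidines runs across the annotated start, with too few of them after it to count as a run. A missing run therefore says only that these letters are not at the annotated base. Counted over genes, 46 of 64 members (71.9%) had at least 1 annotated start with the run, against 5.14% of 27305 genes in the same table. In the 250 bases before the start, on either strand, the letters CCGGAAG, a core bound by ETS family factors, were found at 24 of 79 member starts (30.4%) and at 8.52% of all starts. The E-box CACGTG, which MYC binds, was found at 3.8% of member starts and 6.34% of all starts, and TATAAA at 7.59% and 10.7%. No motif searched contains another. In AsPC-1 the median log2 change with MEK inhibitors was −0.04 over the 46 tested members with a run and −0.11 over the 17 without, and between the autophagy inhibitors alone 0.15 and 0.13, as a description.

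The members together made up 11.2% ± 0.879 of counts in AsPC-1 (SD, n = 68 libraries) and 12.3% ± 0.617 in PANC-1 (n = 68). Messages and their levels are given below as CPM with a common scaling over the libraries of both lines, and each gene is compared only with itself. Of the 81 members, 79 passed the filter on low counts in AsPC-1 and 80 in PANC-1. RPL10L, a retrocopy of RPL10, passed in neither line, and RPL39L, a copy of RPL39, passed only in PANC-1. Over the 12 libraries with an autophagy inhibitor alone, the median coefficient of variation of the members was 13.98% in AsPC-1 and 13.7% in PANC-1. RPS28 in AsPC-1 was the steadiest, at 4.96%, and RPL9 in PANC-1 the most variable, at 73.0%. Ribosomal protein genes have many near-identical processed pseudogenes, and how the authors' counting divided reads among the copies is not given in the sources used here, so the level of any single member is uncertain to that extent.

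Before any drug comparison, the lines themselves differed in part of the set. In 24 of the 81 members the 12 libraries of one line did not overlap the 12 of the other. Of these, 6 were higher in PANC-1 and 18 higher in AsPC-1. The same was true of 24.6% of the 7446 genes with a mean of at least 10 CPM. Of those 7446 genes, 10.7% were higher in PANC-1 and 13.9% higher in AsPC-1. The number of members is near this background, so it is no result about ribosomal proteins. Whether their split between the lines differs from that of all genes was not tested. Line and plate cannot be told apart in this layout, so these levels are a description with no test, and its genes are named with their values known. RPS16, in the small subunit, was at 713 CPM ± 65.6 in AsPC-1 (lowest 619.8, highest 860.1) and at 8088 CPM ± 794 in PANC-1 (lowest 6850, highest 9439), a ratio of 11.4. RPS16 lies on chromosome 19 at 39433207 to 39435948 (GRCh38). A window of 500 kb on either side of it was chosen after the values were seen. It holds 16 genes with a mean of at least 10 CPM over both lines. All 16 were higher in every PANC-1 than in every AsPC-1 library. The median ratio of those other than RPS16 was 19.3, against 0.976 over all genes. A gene could pass this limit through PANC-1 alone. FBXO17 did so, at 0.234 CPM in AsPC-1 and 199.9 CPM in PANC-1, and DLL3, at 0.276 and 48.4 CPM. Such ratios rest on AsPC-1 values near 0. DNA copy number was not analysed here.

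RPL9, in the large subunit, showed the opposite order, with a mean of 876 CPM ± 116 in AsPC-1 and 77.9 CPM ± 56.9 in PANC-1, where single libraries ran from 3.45 to 193.6 CPM. This spread in PANC-1 leaves RPL9 with wide errors in every comparison below: with ERK inhibitors its log2 change there was −1.13 ± 0.47 and its edgeR adjusted p was 0.1097. RPL39L was at 0 to 0.603 CPM in AsPC-1 and at 38.8 to 80.0 CPM in PANC-1. RPS27L was at 661 CPM ± 130 in AsPC-1 and 261 CPM ± 48.0 in PANC-1, with no overlap, while RPL28 was at 519 CPM ± 78.7 and 1226 CPM ± 243.

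**Figure D1:**
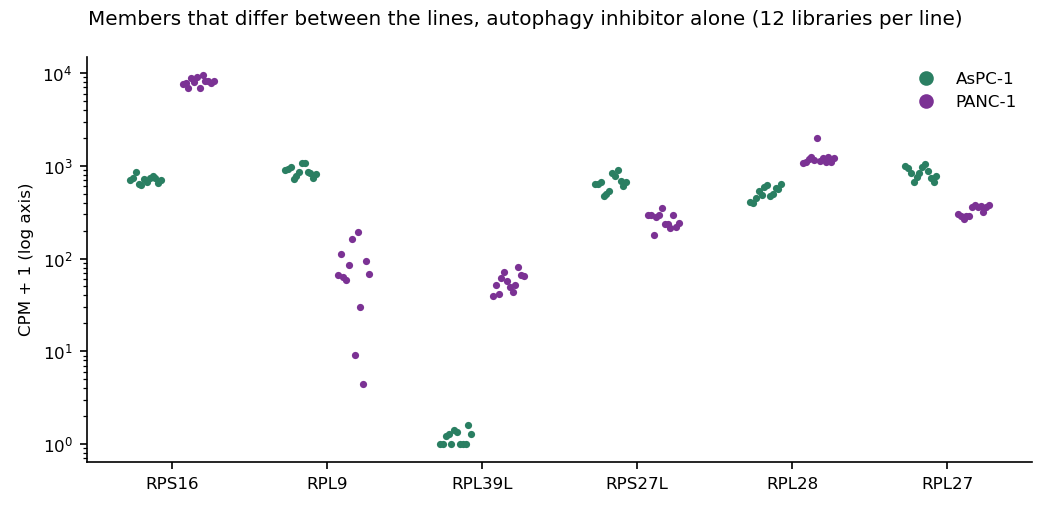
Levels of 6 ribosomal protein genes in the 12 AsPC-1 and 12 PANC-1 libraries that received an autophagy inhibitor alone, as CPM + 1 on a log axis, 1 point per library. RPS16 sits near 713 CPM in AsPC-1 and 8088 CPM in PANC-1, RPL9 and RPL27 are higher in AsPC-1, and RPL39L is at or near 0 in AsPC-1.

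The clearest movement of the set was between the autophagy inhibitors in AsPC-1. With the Vps34 inhibitor alone, 21 of 79 members (26.6%) were higher than with hydroxychloroquine alone and none was lower, while 5.93% of all genes tested were called in this comparison, 3.21% higher and 2.72% lower. These were 10 of 47 large-subunit and 11 of 32 small-subunit members. The median member change was 0.14 on the log2 scale against 0.01 over all genes, and 62 of 79 members lay above 0. All changes below are edgeR quasi-likelihood estimates ± standard error, with p adjusted by Benjamini and Hochberg over all genes tested.

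RPS14, a small-subunit protein lost in the 5q- syndrome, ran from 736 to 972 CPM (median 884) with hydroxychloroquine and from 928 to 1699 CPM (median 1090) with the Vps34 inhibitor, 6 libraries each. The groups overlapped, with the lowest Vps34 inhibitor library inside the hydroxychloroquine range. The change was 0.49 ± 0.10 on the log2 scale (edgeR adjusted p = 0.000436). RPL13, a large-subunit protein, ran from 2634 to 3203 CPM (median 2865) and from 3115 to 4568 CPM (median 3514) with overlap at 1 end, a change of 0.34 ± 0.07 (edgeR adjusted p = 0.000615). RPS12 was the clearest by range: every Vps34 inhibitor library (1971 to 2333 CPM, median 2001) lay above every hydroxychloroquine library (1467 to 1850 CPM, median 1556), and the change was 0.37 ± 0.08 (edgeR adjusted p = 0.00138). RPS27L ran from 474 to 688 CPM (median 573) and from 630 to 903 CPM (median 720), a change of 0.37 ± 0.08 (edgeR adjusted p = 0.00125). RPL27 ran from 674 to 834 CPM (median 745) and from 831 to 1043 CPM (median 959), a change of 0.36 ± 0.08 (edgeR adjusted p = 0.00294). The ranges met only at their edges in RPL27 and overlapped in RPS27L.

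The share of all counts in ribosomal protein genes moved the same way. It was 11.3% ± 0.443 with hydroxychloroquine alone (10.7 to 11.8%) and 11.97% ± 0.548 with the Vps34 inhibitor alone (11.1 to 12.7%), and the groups overlapped. Mitochondrial RNAs moved with the autophagy inhibitor in AsPC-1 too. The mitochondrial ribosomal RNAs took 5.13% ± 0.789 of counts with hydroxychloroquine and 2.92% ± 0.263 with the Vps34 inhibitor, and the messages of mitochondrial DNA 25.2% ± 1.45 and 28.7% ± 0.797. With all mitochondrial genes left out of the totals, 21 members were again called higher, and the share difference was 1.32 percentage points in place of 0.698. The call rests on scaling and on plate in part: with library totals in place of TMM factors 7 members were higher and 2 lower, without the plate term 7 were called, and each plate alone, with 3 libraries per inhibitor, called 0.

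With the autophagy inhibitors alone in PANC-1, 0 of 80 members were higher and 3 (3.75%) were lower with the Vps34 inhibitor, while 2.47% of all genes tested were called, 1.31% higher and 1.16% lower, and the median member change was −0.06 against 0.01 over all genes. RPL39L, a paralog of the exit tunnel protein RPL39, ran from 56.3 to 80.0 CPM with hydroxychloroquine and from 38.8 to 51.3 CPM with the Vps34 inhibitor, with no overlap, a change of −0.54 ± 0.11 (edgeR adjusted p = 0.00183). RPS20, of the small subunit, ran from 6510 to 10120 CPM and from 5787 to 8056 CPM with overlap, and its change of −0.27 ± 0.07 (edgeR adjusted p = 0.0197) was no longer called without replicate 3 of either group. RPL23A, at the peptide exit of the large subunit, changed by −0.36 ± 0.11 (edgeR adjusted p = 0.0479), and this call was lost in 10 of 12 fits that left out 1 library of these groups.

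The difference between the lines was tested in a joint fit. The change from hydroxychloroquine alone to the Vps34 inhibitor alone was lower in PANC-1 than in AsPC-1 for 7 of 80 members (8.75%) and higher for none, while 2.51% of all genes tested differed, 1.16% higher and 1.35% lower. RPS3, at the mRNA entry of the small subunit, differed by −0.39 ± 0.09 (edgeR adjusted p = 0.00201), RPS20 by −0.48 ± 0.11 (edgeR adjusted p = 0.00208) and RPS14 by −0.65 ± 0.15 (edgeR adjusted p = 0.00339). Only 3 members were called with library totals and 2 without the plate term.

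The same comparison was then made over the libraries that also held a kinase inhibitor, 28 with each autophagy inhibitor per line, which are other libraries than those above. This comparison was added after the data were seen, and its members were named with their values known. In AsPC-1, 56 of 79 members (70.9%) were higher with the Vps34 inhibitor and 0 were lower, while 31.1% of all genes tested were called, 14.2% higher and 16.9% lower. The median member change was 0.23 against −0.03 over all genes, 77 of 79 members lay above 0, and all 21 members called in the libraries with an autophagy inhibitor alone were called higher here too. Each drug on each plate gives a pair of libraries, 1 per autophagy inhibitor. In 7 members the Vps34 inhibitor library was the higher in all 28 pairs, and in 61 of 79 members it was the higher in at least 20. In PANC-1 it was the higher in at least 20 pairs in 8 of 80 members and in all 28 in 0. Pairs were not counted over all genes, so these counts have no background beside them.

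RPS18, a small-subunit protein, ran from 1619 to 3263 CPM (median 2169) with hydroxychloroquine and from 2441 to 4186 CPM (median 3162) with the Vps34 inhibitor, higher in 27 of 28 pairs, a change of 0.53 ± 0.04 (edgeR adjusted p = 9.1e-16). RPL12, at the base of the stalk, ran from 1038 to 1671 CPM (median 1375) and from 1558 to 2254 CPM (median 1862), higher in 28 of 28 pairs, a change of 0.43 ± 0.03 (edgeR adjusted p = 1.29e-15). RPL13 ran from 2158 to 3166 CPM (median 2701) and from 2796 to 4035 CPM (median 3549), higher in 28 of 28 pairs, a change of 0.39 ± 0.03 (edgeR adjusted p = 1.62e-15). The ranges of these 3 overlapped while nearly every pair went one way. RPS3 was higher in 27 of 28 pairs and RPL34 in 28 of 28.

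Both plates showed the difference by themselves, with 42 members higher with the Vps34 inhibitor and 0 lower on each. The median member change was 0.24 on plate A and 0.23 on plate B, against −0.01 over all genes on each. The plate A fit leaves out the high dabrafenib library and the plate B fit the low RAF709 library. Without RAF709 with hydroxychloroquine replicate 1, 53 were higher and 0 lower. Library totals in place of TMM factors moved the median of all genes to −0.15 and that of the members to 0.11, with 35 members higher and 3 lower. With mitochondrial genes left out of the totals the count stayed at 56 and 0. The share of all genes called was not counted in these alternative fits, so their member counts have no background beside them. The share of counts in ribosomal protein genes was higher with the Vps34 inhibitor in 24 of 28 AsPC-1 pairs, by a median of 0.922 percentage points, and as a share of counts outside mitochondrial genes in 28 of 28. By class it was higher in 10 of 10 MEK, 7 of 10 RAF and 7 of 8 ERK inhibitor pairs.

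In PANC-1 the same comparison called 7 of 80 members higher and 7 lower (8.75% each), while 20.9% of all genes tested were called, 9.86% higher and 11% lower, and the median member change was −0.03 against −0.01 over all genes. RPL36 and RPL12 were higher, by 0.28 ± 0.04 (edgeR adjusted p = 1.9e-06) and 0.26 ± 0.04 (edgeR adjusted p = 6.78e-06), in 27 and 23 of 28 pairs. RPS3 ran from 1090 to 1535 CPM (median 1319) with hydroxychloroquine and from 1024 to 1451 CPM (median 1185) with the Vps34 inhibitor, higher in only 6 of 28 pairs, a change of −0.13 ± 0.03 (edgeR adjusted p = 0.000294). The share of counts was higher with the Vps34 inhibitor in 17 of 28 PANC-1 pairs.

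A joint fit tested the difference between the lines. In 51 of 80 members (63.7%) the change was lower in PANC-1 than in AsPC-1 and in 0 it was higher, while 15.8% of all genes tested differed, 7.87% higher and 7.92% lower. The median difference was −0.23 against 0.01 over all genes, and 2 members lay above 0. RPS3 differed by −0.48 ± 0.04 (edgeR adjusted p = 9.75e-19), RPL34 by −0.55 ± 0.05 (edgeR adjusted p = 4.39e-14) and RPS27A, made as a fusion with ubiquitin, by −0.48 ± 0.06 (edgeR adjusted p = 2.89e-10).

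**Figure D2:**
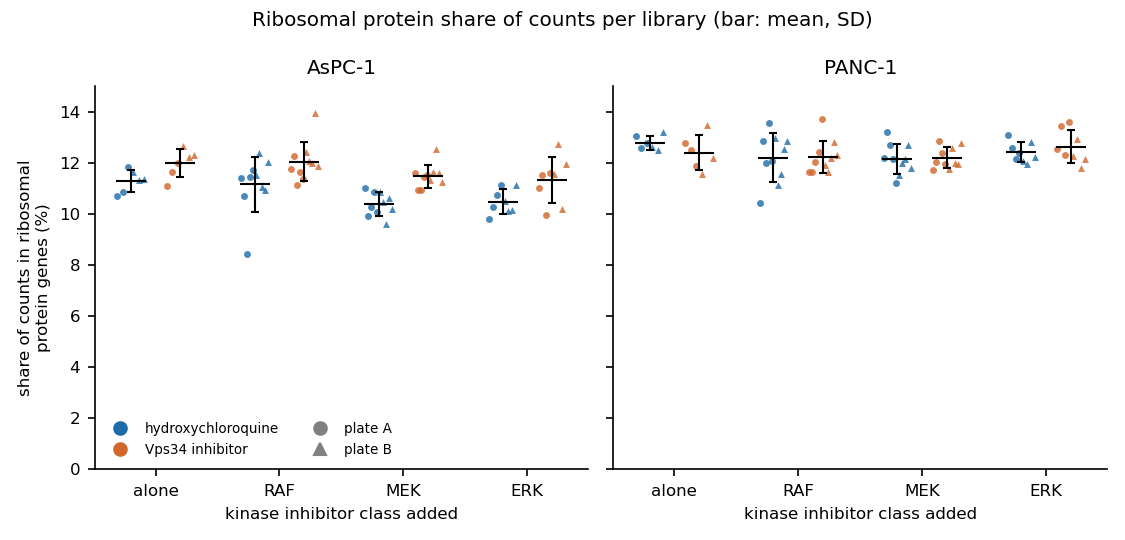
Share of counts in ribosomal protein genes in each library, in percent, by kinase inhibitor class and autophagy inhibitor, with AsPC-1 on the left and PANC-1 on the right. Points are libraries (circles plate A, triangles plate B) and bars give mean and SD. In AsPC-1 the means with the Vps34 inhibitor (11.31 to 12.04%) lie above those with hydroxychloroquine (10.4 to 11.3%) in every class. In PANC-1 all means lie between 12.2 and 12.8%.

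Kinase inhibitors were compared with alone over both autophagy inhibitors, each weighted equally. With RAF inhibitors in AsPC-1 1 of 79 members (1.27%) was called, while 8.66% of all genes tested were called (3.75% higher, 4.91% lower), and the median change was 0.00 against −0.04 over all genes. The share of counts differed by −0.0246 percentage points, and by 0.127 without RAF709 with hydroxychloroquine replicate 1 and −0.130 without dabrafenib with the Vps34 inhibitor replicate 2, so its direction rests on single libraries. In PANC-1 0 of 80 members were called by edgeR, with and without GDC-0879 with hydroxychloroquine replicate 1, and 2 by DESeq2, with 10 at an unadjusted p under 0.05, while 0.539% of all genes tested were called (0.103% higher, 0.436% lower).

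MEK inhibitors lowered part of the set in AsPC-1. Of 79 members, 17 (21.5%) were lower and 3 (3.8%) higher, while 28.9% of all genes tested were called, 16.1% lower and 12.9% higher. The member share called, 25.3%, is near that background, and the median change of −0.06 is close to the −0.05 over all genes, so the number of calls is no result about ribosomal proteins. The members' changes ranged from −0.40 to 0.32, and those called lower were 10 large-subunit and 7 small-subunit members.

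RPL4, a large-subunit protein that lines the exit tunnel, ran from 1936 to 2423 CPM (median 2235) over the 12 libraries with an autophagy inhibitor alone and from 1532 to 2074 CPM (median 1770) with MEK inhibitors. With hydroxychloroquine 9 of 10 MEK inhibitor libraries lay below the lowest alone library, and with the Vps34 inhibitor 6 of 10. The change was −0.31 ± 0.04 (edgeR adjusted p = 2.8e-09). RPS7, a small-subunit protein mutated in some families with Diamond-Blackfan anaemia, ran from 957 to 1425 CPM (median 1235) alone and from 829.3 to 1304 CPM (median 984) with MEK inhibitors, a change of −0.29 ± 0.05 (edgeR adjusted p = 3.98e-06). RPL23, also of the large subunit, ran from 1411 to 1738 CPM alone (median 1480) and from 1055 to 1530 CPM (median 1245), a change of −0.26 ± 0.05 (edgeR adjusted p = 4.92e-06). With hydroxychloroquine all 10 of its MEK inhibitor libraries lay below the lowest alone library. RPL27 and RPL7 fell by 0.29 ± 0.05 (edgeR adjusted p = 8.43e-06) and 0.21 ± 0.04 (edgeR adjusted p = 0.000105) on the log2 scale.

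The 3 members that rose were RPS27L, RPSA and RPS27. RPS27L, a paralog of RPS27 known as a p53 target, ran from 474 to 903 CPM alone (median 655) and from 564 to 1183 CPM with MEK inhibitors (median 775), a change of 0.29 ± 0.05 (edgeR adjusted p = 3.49e-06). The ranges overlapped widely, and 5 of 10 MEK inhibitor libraries with each autophagy inhibitor lay above the highest library of that inhibitor alone. RPSA, which also serves as a laminin receptor, rose by 0.18 ± 0.06 (edgeR adjusted p = 0.00978), and RPS27 by 0.17 ± 0.05 (edgeR adjusted p = 0.00812).

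ERK inhibitors gave AsPC-1 the same kind of change. Of 79 members, 21 (26.6%) were lower and 4 (5.06%) higher, while 31.1% of all genes tested were called, 17.4% lower and 13.7% higher, so here too the count is near the background. RPL4 ran from 1372 to 2334 CPM (median 1757), and with hydroxychloroquine all 8 ERK inhibitor libraries lay below the lowest alone library. Its change was −0.34 ± 0.04 (edgeR adjusted p = 6.12e-10). RPL27 changed by −0.37 ± 0.05 (edgeR adjusted p = 8.3e-08), again with all 8 hydroxychloroquine libraries below the lowest alone library. RPL7, RPS7 and RPS6 fell by 0.29, 0.27 and 0.24. RPS27L rose by 0.40 ± 0.05 (edgeR adjusted p = 6.35e-09), and RPSA, RPS27 and RPS21 by 0.19, 0.15 and 0.21. RPS21 lost its call without replicate 1 of ravoxertinib with hydroxychloroquine.

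**Figure D3:**
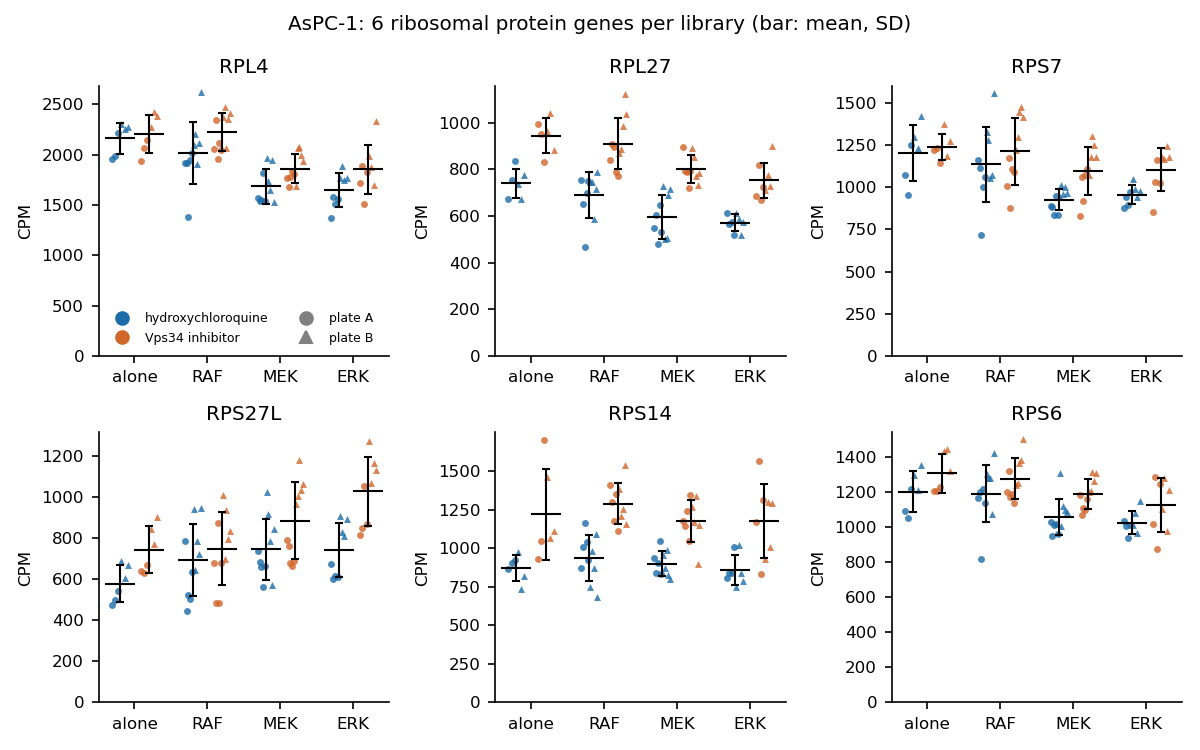
Levels of RPL4, RPL27, RPS7, RPS27L, RPS14 and RPS6 in each of the 68 AsPC-1 libraries, in CPM from 0, by kinase inhibitor class and autophagy inhibitor. Circles are plate A and triangles plate B, and bars give mean and SD. RPL4 is lower with MEK and ERK inhibitors (medians 1770 and 1757 CPM) than alone (2235 CPM), RPS27L is higher, and RPS14 and RPL27 have higher means with the Vps34 inhibitor in every class.

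MEK and ERK inhibitors stood apart from RAF inhibitors in AsPC-1. Against the RAF inhibitors, 25 of 79 members (31.6%) were lower and 1 was higher, while 21.7% of all genes tested were called, 11.3% lower and 10.4% higher, and the median change was −0.07 against −0.01 over all genes. RPL4 changed by −0.27 ± 0.03 (edgeR adjusted p = 1.01e-10), RPL5 by −0.20 ± 0.03 (edgeR adjusted p = 3.01e-06) and RPL27 by −0.24 ± 0.04 (edgeR adjusted p = 3.13e-06). RPS27L was the member that was higher, by 0.23 ± 0.04 (edgeR adjusted p = 2.56e-06). Without RAF709 with hydroxychloroquine replicate 1, 32 members were called in place of 26. Between MEK and ERK inhibitors edgeR called 0 of 79 members, with 4 at an unadjusted p under 0.05 and 0 called by DESeq2, while 0.744% of all genes tested were called.

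In PANC-1 MEK inhibitors lowered 8 of 80 members (10%) and raised none, while 18.5% of all genes tested were called, 10.6% lower and 7.9% higher. ERK inhibitors lowered 6 (7.5%) and raised none, while 14.1% of all genes were called, 8.7% lower and 5.43% higher. With both classes the share of members lower is near the share of all genes lower. These counts are therefore no result about ribosomal proteins. RPS24, a small-subunit protein mutated in some families with Diamond-Blackfan anaemia, ran from 2918 to 3962 CPM alone (median 3370) and from 2537 to 3272 CPM with MEK inhibitors (median 2917), a change of −0.22 ± 0.04 (edgeR adjusted p = 4.36e-05). RPL39L changed by −0.32 ± 0.07 with MEK inhibitors (edgeR adjusted p = 0.000307) and by −0.34 ± 0.07 with ERK inhibitors (edgeR adjusted p = 0.000405). RPL37 ran from 4089 to 5154 CPM alone (median 4831), from 3488 to 5306 CPM with MEK inhibitors (median 4113) and from 3194 to 5588 CPM with ERK inhibitors (median 4125). Its groups overlapped, and its change was −0.16 ± 0.04 (edgeR adjusted p = 0.000936) with MEK and −0.20 ± 0.04 (edgeR adjusted p = 0.000123) with ERK inhibitors. RPL23 and RPL4 fell by 0.20 and 0.15 with MEK inhibitors, and RPL23, RPS24 and RPL13 by 0.19, 0.16 and 0.14 with ERK inhibitors.

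Against the RAF inhibitors, MEK and ERK inhibitors together lowered 5 of 80 members (6.25%) in PANC-1 and raised 1 (1.25%). Of all genes tested, 16.8% were called, 8.67% lower and 8.15% higher, so this count too is no result about ribosomal proteins. RPL39L changed by −0.24 ± 0.05 (edgeR adjusted p = 0.000444), RPL23 by −0.15 ± 0.04 (edgeR adjusted p = 0.00225) and RPL37 by −0.10 ± 0.03 (edgeR adjusted p = 0.00516), and RPS29 was higher by 0.13 ± 0.04 (edgeR adjusted p = 0.0167). Without replicate 2 of GDC-0879 with hydroxychloroquine, 14 members were called in place of 6, 9 higher and 5 lower. Between MEK and ERK inhibitors 0 of 80 were called by edgeR and 0 by DESeq2, with 5 at an unadjusted p under 0.05, while 2.26% of all genes tested were called.

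**Figure D4:**
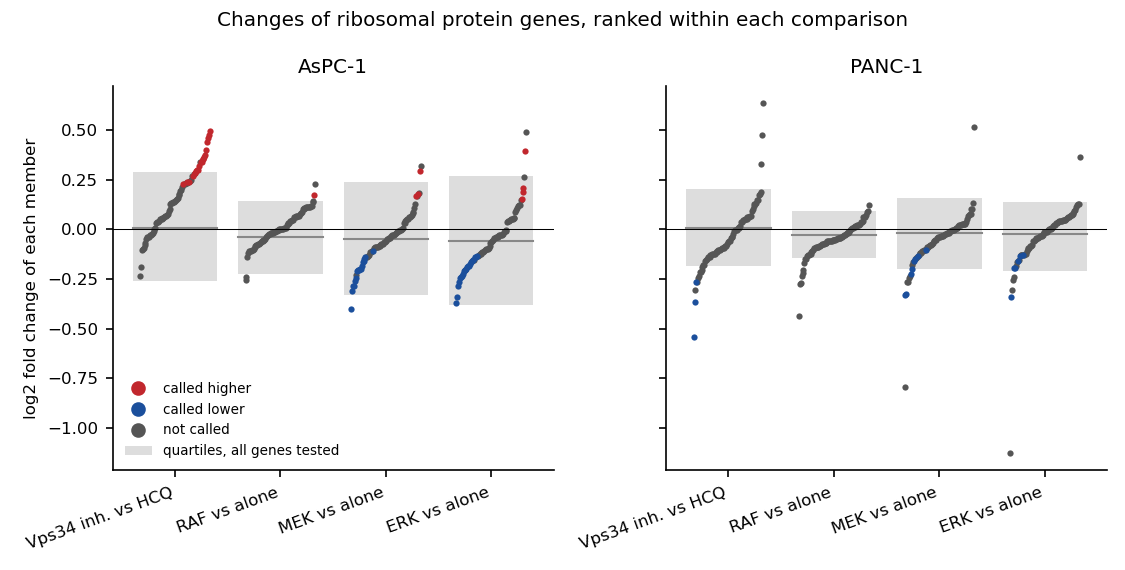
Log2 fold changes of the members in 4 comparisons, ranked within each, with 79 members in AsPC-1 (left) and 80 in PANC-1 (right). Red and blue points passed the edgeR threshold and grey points did not, and the grey boxes give the quartiles and median of all genes tested. In AsPC-1 the points for the Vps34 inhibitor against hydroxychloroquine lie mostly above 0 and 21 are called higher, while with MEK and ERK inhibitors 17 and 21 are called lower within a range that mostly stays inside the quartiles of all genes. The lowest PANC-1 points with MEK and ERK inhibitors are RPL9, which was not called.

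Whether the autophagy inhibitor changed the effect of a kinase inhibitor class was tested as an interaction. This interaction called 0 members for RAF, MEK and ERK inhibitors in either line by edgeR, with 4, 5 and 8 at an unadjusted p under 0.05 in AsPC-1 and 10, 6 and 7 in PANC-1. DESeq2 called 1, for ERK inhibitors in AsPC-1. Over all genes tested, 0%, 0.094% (0.047% higher and 0.047% lower) and 0.313% were called in AsPC-1 and 0% in PANC-1. The AsPC-1 medians of the members' interaction terms were 0.10, 0.08 and 0.08, toward higher levels with the Vps34 inhibitor. Those of PANC-1 were 0.03, 0.06 and 0.09, in the same direction.

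Whether the kinase effect differed between the lines was tested for each class. The ERK effect differed in 6 of 80 members (7.5%), 5 higher and 1 lower in PANC-1, while 13.9% of all genes tested differed, 7.49% higher and 6.41% lower. RPL4 differed by 0.21 ± 0.05 (edgeR adjusted p = 0.00432), RPS6 by 0.22 ± 0.06 (edgeR adjusted p = 0.00867), RPL7 by 0.25 ± 0.07 (edgeR adjusted p = 0.0139) and RPS27L by −0.39 ± 0.10 (edgeR adjusted p = 0.00304). The count depends on scaling, with 18 members called with library totals. The MEK effect differed in 2 members (2.5%), RPL7 by 0.24 ± 0.07 (edgeR adjusted p = 0.0123) and RPL4 by 0.16 ± 0.05 (edgeR adjusted p = 0.0342), while 11.4% of all genes tested differed. The RAF effect differed in 0 by edgeR and 0 by DESeq2, with 7 at an unadjusted p under 0.05, while 1.68% of all genes tested differed.

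Single drugs had 2 libraries with each autophagy inhibitor, at doses that are not given as numbers, so they are set side by side without comparison. In AsPC-1 the median member change over both autophagy inhibitors was lowest for ravoxertinib, at −0.16 with 70 of 79 members below 0. Selumetinib, trametinib, refametinib, RAF709, AZD0364 and cobimetinib gave −0.09 to −0.07. Binimetinib, SCH772984 and ulixertinib gave −0.02, −0.01 and 0.00, and sorafenib, GDC-0879, dabrafenib and PLX8394 0.02 to 0.04. For trametinib the median was −0.17 with hydroxychloroquine and 0.00 with the Vps34 inhibitor, and for SCH772984 −0.13 and 0.08, whereas for ravoxertinib it was −0.12 and −0.24. In PANC-1 the lowest medians were those of trametinib at −0.12, RAF709 at −0.12 and GDC-0879 at −0.11. The GDC-0879 value includes hydroxychloroquine replicate 1, with its share of 10.43% against 12.97% in replicate 2, and the median over the libraries with the Vps34 inhibitor was −0.09. The RAF709 value in AsPC-1 includes replicate 1 with hydroxychloroquine, in which 8.43% of counts were ribosomal protein messages and 8.04% mitochondrial ribosomal RNA. The other RAF709 libraries of that line had ribosomal protein shares of 11.05% or more, and the RAF709 median over the libraries with the Vps34 inhibitor was 0.03.

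**Figure D5:**
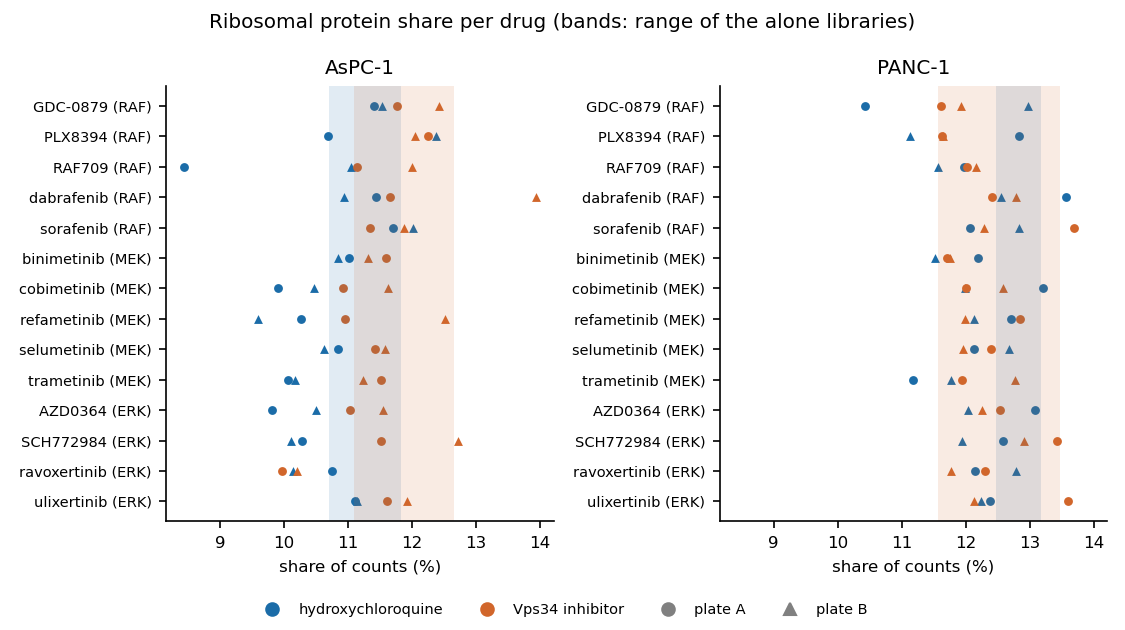
Share of counts in ribosomal protein genes for each kinase inhibitor, in percent, with AsPC-1 on the left and PANC-1 on the right. Each point is 1 library, coloured by autophagy inhibitor and shaped by plate, and the bands span the 6 libraries of each autophagy inhibitor alone. In AsPC-1 7 of 10 MEK and 5 of 8 ERK inhibitor libraries with hydroxychloroquine fall below the band of that inhibitor alone, and with the Vps34 inhibitor 2 of 10 and 3 of 8. The same counts in PANC-1 are 7 of 10 and 5 of 8 with hydroxychloroquine, and 0 with the Vps34 inhibitor.

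The members are given next by what the proteins do, for AsPC-1. In the P stalk, which recruits elongation factors, RPLP0 and its neighbour RPL12 were higher with the Vps34 inhibitor alone than with hydroxychloroquine alone. The differences were 0.40 ± 0.12 (edgeR adjusted p = 0.0318) and 0.32 ± 0.07 (edgeR adjusted p = 0.00319). RPLP1 and RPLP2 were at −0.04 and 0.19 and were not called. None of the 4 was called with MEK or ERK inhibitors. RPL5 and RPL11 form the 5S particle, which binds MDM2 when assembly is disturbed. RPL5 fell with MEK and ERK inhibitors by 0.19 ± 0.04 and 0.23 ± 0.05 (edgeR adjusted p = 0.000557 and 5.43e-05), while RPL11, at −0.04 with ERK inhibitors, was not called. RPS6, the substrate of S6 kinase, fell by 0.16 ± 0.05 with MEK inhibitors (edgeR adjusted p = 0.00353) and by 0.24 ± 0.05 with ERK inhibitors (edgeR adjusted p = 3.99e-05).

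Around the peptide exit, RPL19 fell with MEK inhibitors by 0.15 ± 0.04 (edgeR adjusted p = 0.00649). RPL31 and RPL26 were higher with the Vps34 inhibitor alone than with hydroxychloroquine alone, by 0.35 ± 0.09 (edgeR adjusted p = 0.00703) and 0.28 ± 0.09 (edgeR adjusted p = 0.0399). RPL17 and RPL39 were not called in these comparisons. RPS3, at the mRNA entry, was higher with the Vps34 inhibitor alone than with hydroxychloroquine alone, by 0.24 ± 0.06 (edgeR adjusted p = 0.00917), and its neighbour RPS2 was not called. RPS26 and RPS28, at the mRNA exit, were not called in any of the comparisons against alone or between the autophagy inhibitors alone. Among proteins mutated in Diamond-Blackfan anaemia, RPS10 and RPL35A were higher with the Vps34 inhibitor alone than with hydroxychloroquine alone, by 0.46 and 0.34, whereas RPS19 was not called. RPS24 fell with MEK inhibitors by 0.11. Of the paralogs, RPS27L and RPS27 both rose with MEK and ERK inhibitors. RPL3 fell by 0.19 ± 0.06 with ERK inhibitors (edgeR adjusted p = 0.00783) while the muscle paralog RPL3L, at a mean log2 CPM of 2.06, was at 0.49 ± 0.31 and was not called.

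Other parts of the translation machinery of AsPC-1 are set beside the 28.9% of all genes called with MEK inhibitors and the 31.1% called with ERK inhibitors. The gene lists used here and below were chosen with earlier results of these data known, so their counts are a description. Of 64 ribosome assembly factors tested, 44 were lower and 0 higher with MEK inhibitors (median −0.42, against −0.06 over the ribosomal proteins) and 45 and 0 with ERK inhibitors (median −0.54). NOP56, of the box C/D particle that guides methylation of ribosomal RNA, fell by 0.76 with MEK inhibitors, and DDX21, a nucleolar helicase, by 0.73. Of 81 mitochondrial ribosomal proteins, 28 were lower and 1 higher with MEK inhibitors, with MRPL15 at −0.85. Of 35 initiation factors, 20 were lower and 1 higher, with EIF4EBP1, a repressor of translation initiation, at −1.03 and EIF4EBP2 at 0.43. Of 10 elongation factors 5 were lower, with EEF1B2 at −0.29. Ribosomal proteins under other symbols and close paralogs counted 3 of 7 lower, with RPL22L1 at −0.55. Other messages known to carry a TOP motif counted 6 of 17 lower and 1 higher, with NPM1 at −0.40. RNA polymerase I and III genes counted 11 of 31 lower and 2 higher, with POLR3G at −1.03.

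Regulators of ribosome production were mixed. Genes of mTORC1 signalling counted 4 of 26 higher and 3 lower, with DEPTOR, an mTOR inhibitor protein, at 1.71. In the MYC family, MYC was at −0.53 and MXD4 at 0.89, with 2 of 11 higher and 1 lower. The p53 targets counted 2 of 25 higher and 4 lower with MEK inhibitors and 5 higher and 5 lower with ERK inhibitors. All 14 ERK target genes tested were lower with MEK inhibitors in either line, with SPRY4, a feedback inhibitor of the pathway, at −2.84 in AsPC-1 and −3.27 in PANC-1. In PANC-1 14 of 65 assembly factors were lower and 1 higher with MEK inhibitors, 5 were lower with ERK inhibitors, and mitochondrial ribosomal proteins counted 4 lower and 1 higher. These counts are to be read beside the shares of all genes called in PANC-1 with MEK and ERK inhibitors, given above. In the joint fit the ERK effect on assembly factors was higher in PANC-1 than in AsPC-1 for 33 of 65 genes and lower for 0. The share of all genes whose ERK effect differed between the lines is given above.

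For the Vps34 inhibitor alone against hydroxychloroquine alone in AsPC-1, the other machinery is set beside the 5.93% of all genes called, 3.21% higher and 2.72% lower. Assembly factors counted 1 higher and 1 lower of 64, initiation factors 0 higher and 4 lower of 35, elongation factors 0 higher and 1 lower of 10, and mitochondrial ribosomal proteins 4 higher and 1 lower of 81. ERK targets counted 5 of 14 lower, and epithelial markers 4 of 6 lower. Of 13 protein genes of mitochondrial DNA, 5 were higher.

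The members moved together across libraries in AsPC-1. The median pairwise correlation of log2 CPM between members was 0.357 over the 68 libraries and 0.154 after treatment and plate means were removed, against 0.041 between 316 genes with a mean of at least 8 log2 CPM. In PANC-1 it was 0.128, and 0.137 after the means were removed, against 0.041 between 421 genes. These are descriptions: library totals, high counts and the scaling are common to all pairs, and the part of each was not tested.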

How the data were processed

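RNA counts per gene were deposited by the authors as 1 table of whole numbers that are not normalised, with 1 column per library. The submitters' processing notes name kallisto 0.44.0 and GRCh38, without their roles. How transcripts were summed to genes, and with which annotation, is not given in the sources used here.

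Groups and plates came from the library titles. Each line was fitted over its 68 libraries with edgeR 4.0.16 in R 4.3.3 (robust quasi-likelihood fit, TMM factors, plate as a term, 37 residual degrees of freedom) after filterByExpr by treatment group. This kept 12761 genes for AsPC-1 and 12627 for PANC-1. A joint fit of 13960 genes, with plate within line, tested differences between the lines. Class effects compare the average over a class's drug groups with the average over the alone groups. Tests are two-sided, with Benjamini and Hochberg adjustment over all genes and 0.05 as the threshold for a call. Standard errors are the log2 change divided by the square root of F. CPM used TMM factors over both lines, and shares used raw totals. Gene positions are from GENCODE v29 and starts from RefSeq, both on GRCh38.

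In vs-alone comparisons and between the autophagy inhibitors alone, the text names up to 5 members per direction with the smallest adjusted p and the members whose role is described. In other comparisons it names up to 3 per direction. From the other gene lists it names up to 2 per direction with MEK inhibitors. The members and lists were chosen with earlier results of these data known. The comparison of the autophagy inhibitors over libraries with a kinase inhibitor was added after the data were seen, and its genes were chosen after their values were seen. Deviations of libraries on the same plate correlated over 435 treatment pairs with a median of 0.0342 for AsPC-1, over 0.1 in 5.75% of pairs, and 0.0544 for PANC-1, over 0.1 in 23.9%. The scripts were checked on simulated data. DESeq2 1.42.0, other scalings, filters and sample sets were alternatives. Some members that the naming rule takes are not reported here.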

Additional observations from a re-analysis of the deposited data

Results flagged for a closer look

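Single libraries stood apart in 4 of 90 groups of 6 alone libraries of the named members that were examined, and chance flags about 1 in 20 groups. All 4 were in PANC-1. With hydroxychloroquine alone, RPS27 was lowest in replicate 3 at 390 CPM (the others 561 to 652 CPM) and RPSA was lowest in the same library at 293 CPM (332 to 348 CPM). With the Vps34 inhibitor alone, RPS12 was highest in replicate 5 at 2699 CPM (1651 to 2037 CPM) and RPS6 was highest in the same library at 1029 CPM (891 to 922 CPM).

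Effects that differed between the lines by the joint edgeR fit are given as log2 differences, PANC-1 minus AsPC-1. For ERK inhibitors against alone they were −0.39 for RPS27L (adjusted p = 0.00304), 0.21 for RPL4 (0.00432), 0.22 for RPS6 (0.00867), 0.25 for RPL7 (0.0139), 0.21 for RPL19 (0.0344) and 0.23 for RPS25 (0.0479). For MEK inhibitors they were 0.24 for RPL7 (0.0123) and 0.16 for RPL4 (0.0342). For the Vps34 inhibitor against hydroxychloroquine alone they were −0.39 for RPS3 (0.00201), −0.48 for RPS20 (0.00208), −0.65 for RPS14 (0.00339), −0.38 for RPL13 (0.00646), −0.57 for RPS27L (0.0189), −0.45 for RPS13 (0.043) and −0.36 for RPS3A (0.0465).

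For the Vps34 inhibitor against hydroxychloroquine with kinase inhibitors, the 5 differences with the smallest adjusted p were −0.48 for RPS3, −0.55 for RPL34, −0.48 for RPS27A, −0.44 for RPS29 and −0.53 for RPL26.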

How the results depend on the processing

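None of the member results named for the smallest adjusted p in the planned comparisons changed direction in any alternative run. Members named only for their role or only in the added comparison, and genes of the other lists, were not followed through the alternatives. Differences close to 0 did: with 1 library left out, the AsPC-1 RAF inhibitor share difference ran from −0.130 to 0.127 percentage points (main value −0.0246) and its median member change from −0.02 to 0.01, and the PANC-1 ERK inhibitor share difference from −0.154 to 0.0372 (main value −0.0711). In AsPC-1 the 21 members called between the autophagy inhibitors alone became 9 with library totals (7 higher, 2 lower), 7 without the plate term as replicate block, 13 with drugs as replicates, 0 on plate A, 0 on plate B and 56 over the libraries with a kinase inhibitor, and 12 to 25 when 1 library was left out (12 without hydroxychloroquine alone replicate 1 or 5, 13 without replicate 2). The 1 call for RAF inhibitors became 2 with DESeq2 or with ribosomal proteins under other symbols added, 0 with library totals, without the replicate block, with drugs as replicates and on either plate, and 0 to 2 with 1 library left out (1 lower in place of 1 higher without dabrafenib with the Vps34 inhibitor replicate 2 or GDC-0879 with hydroxychloroquine replicate 2). The 20 calls for MEK inhibitors became 7 and 6 on plates A and B (18 to 22 with 1 library left out), the 25 for ERK inhibitors 9 and 7 (23 to 27), and the 26 for MEK and ERK against RAF inhibitors 4 and 13 (23 to 32). For ERK inhibitors by autophagy inhibitor DESeq2 gave 1 in place of 0.

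In PANC-1 the 3 calls between the autophagy inhibitors became 1 without the replicate block, 1 with only the groups compared, 0 on either plate, 14 over the libraries with a kinase inhibitor and 1 to 4 with 1 library left out (1 without replicate 3 of either group). For RAF inhibitors DESeq2 gave 2 in place of 0, and leaving out 1 library 0 to 3 (3 without replicate 2 of GDC-0879 with hydroxychloroquine). The 8 calls for MEK inhibitors became 5 without the replicate block and 1 and 2 on plates A and B (6 to 10), the 6 for ERK inhibitors 0 on either plate (5 to 7), and the 6 for MEK and ERK against RAF inhibitors (1 higher, 5 lower) 0 and 3 (5 to 14, with 9 higher and 5 lower at the most).

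Between the lines, the 7 calls for the autophagy inhibitors became 3 with library totals, 2 without the replicate block, 51 over the libraries with a kinase inhibitor and 4 to 7 with 1 library left out (4 without PANC-1 hydroxychloroquine alone replicate 4). Those for MEK inhibitors (2) became 1 with RLE factors, 6 with library totals, 1 without the replicate block and 1 to 3 with 1 library left out, those for ERK inhibitors (6) 18, 2 and 4 to 7 with totals, without the block and with 1 library left out, and those for RAF inhibitors (0) 0 to 1. For these differences 8 alone libraries were left out in turn, and leaving out the other 16 was not run. Without mitochondrial genes the AsPC-1 share difference between the autophagy inhibitors alone was 1.32 percentage points in place of 0.698, and that for MEK inhibitors −0.190 in place of −0.703. Fits on 1 plate hold fewer libraries. The cause of the other changes was not tested. Shares of all genes called are not given for the alternative runs, except over the libraries with a kinase inhibitor. The other member counts therefore have no background beside them.

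Of the member results named for the smallest adjusted p, 53 kept their call with DESeq2, 52 with RLE factors and 47 with library totals. Without the replicate block 37 kept it and 16 lost it. On plate A 12 kept it and 32 lost it, and on plate B 17 and 27. Library totals of 1419228 counts and above limit what can be seen of small changes.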
